A study of Mus musculus with 2 samples.

Results

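The WNT genes described here are 48 of the 54532 genes in the deposited table. They are the protein-coding genes whose symbols belong to the families Wnt, Fzd, Sfrp, Dkk and Rspo, together with Lgr4, Lgr5, Lgr6, Lrp5, Lrp6, Axin1 and Axin2. The rule uses symbols and no measured value, though the families were picked with earlier results of these data known. It finds 19 ligands, 10 frizzled receptors, 2 co-receptors, 4 SFRP and 4 DKK antagonists, 4 R-spondins, 3 LGR receptors and 2 AXIN scaffolds. The AXIN proteins are neither secreted nor receptors and lie inside the cell. Levels were measured by RNA sequencing in cells sorted from mouse bone marrow as niche cells, meaning stromal cells outside the blood lineages that support blood stem cells. Blood cells had been depleted by antibodies to CD45, lineage antigens and CD71, and dead cells by Calcein AM and DAPI. All recipients were female CB6F1 mice that were irradiated with 4.0 Gy given 2 times and received 5000000 marrow cells of B6.SJL mice 4 hours later, which is the BMT group. The aGVHD_V group also received 60000000 spleen cells of female C57BL/6 mice, to cause acute graft-versus-host disease, in which donor T cells attack the recipient. The sources used here give neither the age of the mice, nor the number of mice behind a library, nor the meaning of the V, and mice without a transplant were not analysed here.

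WNT proteins are lipid-modified signals that act over short distances. They bind a frizzled receptor and an LRP co-receptor at the cell surface, which disarms the AXIN-based complex that otherwise marks beta-catenin for destruction, so that beta-catenin can enter the nucleus and act with TCF and LEF factors. SFRP proteins bind WNT outside the cell, DKK proteins act on the LRP co-receptors, and R-spondins with their LGR receptors keep frizzled receptors at the surface. In bone marrow the pathway is best known for promoting bone formation by mesenchymal cells and for acting on blood stem cells.

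Each group is 1 library, so the differences below have no replicate check and come without a test or a p-value. The authors deposited FPKM, which relate the reads of a gene to its length in kilobases and to 1000000 reads of a scaled library size, so levels of different genes can be compared within a library. The reads recovered from them numbered 10869191 over genes in BMT and 11299834 in aGVHD_V, but a typical lowly expressed gene had 14 reads in the former and 44 in the latter. That number of reads was treated as 1 count. This is an assumption on which all limits and intervals below rest, and some genes had fewer reads than that, such as Wnt9a with 5 and Wnt5a with 9 in BMT and Fzd1 with 34 in aGVHD_V. Finding no reads was taken to allow up to 3 counts, which is 42 reads in BMT and 132 in aGVHD_V. Intervals (95%) of ratios and shares were computed on these counts and so are wider than the reads alone would give. They cover counting error only.

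Transcripts of most WNT receptors and secreted modulators that were found had a lower FPKM in aGVHD_V. Of 13 genes called at least 2-fold lower below, 5 had an interval of the ratio above 1. The intervals of the other 8 include no difference. Transcripts of the receptors Fzd7, Lrp5 and Lrp6, the antagonist Sfrp5 and the scaffold Axin1 lay within 2-fold on the log2(FPKM + 1) scale. Reads were found for 26 of the 48 genes in BMT and for 10 in aGVHD_V, and these 10 were all among the 26. A total of 25 genes had the higher FPKM in BMT and 1, Sfrp5, in aGVHD_V. Of the 10 genes, Axin1, Sfrp4, Fzd7, Lrp5 and Lrp6 reached the limit of 3 counts in aGVHD_V, and the other 5 had 34 to 65 reads there. The summed FPKM of the 48 genes was 109 in BMT and 41.2 in aGVHD_V, 2.64-fold lower. In libraries made from many cells, fewer cells of a type and less RNA per cell cannot be told apart.

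**Figure D1:**
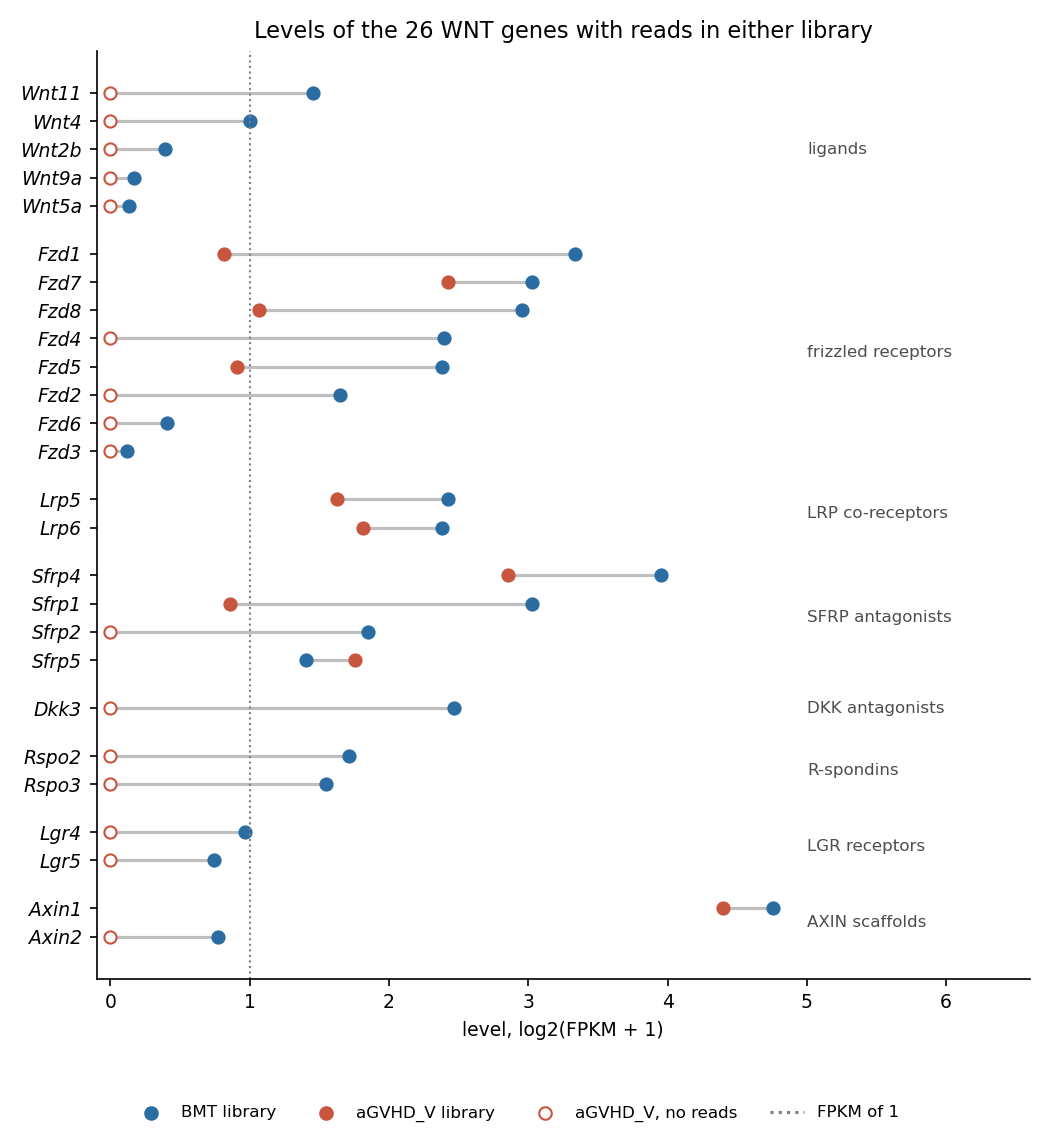
Level of each of the 26 genes with reads, as log2(FPKM + 1), in BMT (blue) and aGVHD_V (red, open where there were no reads), grouped by role. The aGVHD_V point lies left of the BMT point for every gene shown except Sfrp5, and 16 genes have no reads in aGVHD_V.

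A gene was called measured when its FPKM was 1 or more in at least 1 library, and its difference is log2(FPKM + 1) in aGVHD_V minus BMT, a scale on which low genes differ by less than their ratio. Of the 48 genes 18 were measured, 8 had reads but stayed under an FPKM of 1, and 22 had no reads in either library. At least 2-fold lower in aGVHD_V were 13 of the 18 (72.2%), against 19.4% of all 12942 measured genes. None of the 18 was at least 2-fold higher, against 8.65% of all measured genes. Most of the 18 were low, and 16 of them had their higher FPKM between 1 and 10. Of these 16, 12 were lower (75.0%), against 27.9% of the 7504 genes in that range, and none was higher, against 9.78%. The median difference was -1.51 over the 18 genes and -0.07 over all measured genes.

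Part of these counts follows from how a gene was called. A gene with an FPKM of 1 or more in one library and no reads in the other is at least 2-fold different by construction, and 8 of the 13 lower genes were of that kind, as were 1567 of the 2512 lower genes in the whole table. The other 5, with reads in both libraries, were Fzd1, Fzd5, Fzd8, Sfrp1 and Sfrp4. With an FPKM of 1 or more required in both libraries, 7 WNT genes were left and 2 of them, Fzd8 and Sfrp4, were lower, against 599 of 9753 genes (6.14%). With genes without reads set to their limit, 5 of the 18 were lower (27.8%), against 7.63% of all measured genes. The loss of all reads was also counted without a threshold on the difference. Of 26 WNT genes with reads in BMT, 16 had none in aGVHD_V (61.5%), against 24.6% of all 15477 genes with reads in BMT. This count starts from genes with reads in BMT, so it can show losses in aGVHD_V only. Of the 16, Fzd4 and Dkk3 alone had a BMT level above the limit that no reads allow in aGVHD_V. Among genes with a BMT FPKM between 1 and 10 this was 8 of 16 (50.0%), against 20.5% of 7204 genes.

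**Figure D2:**
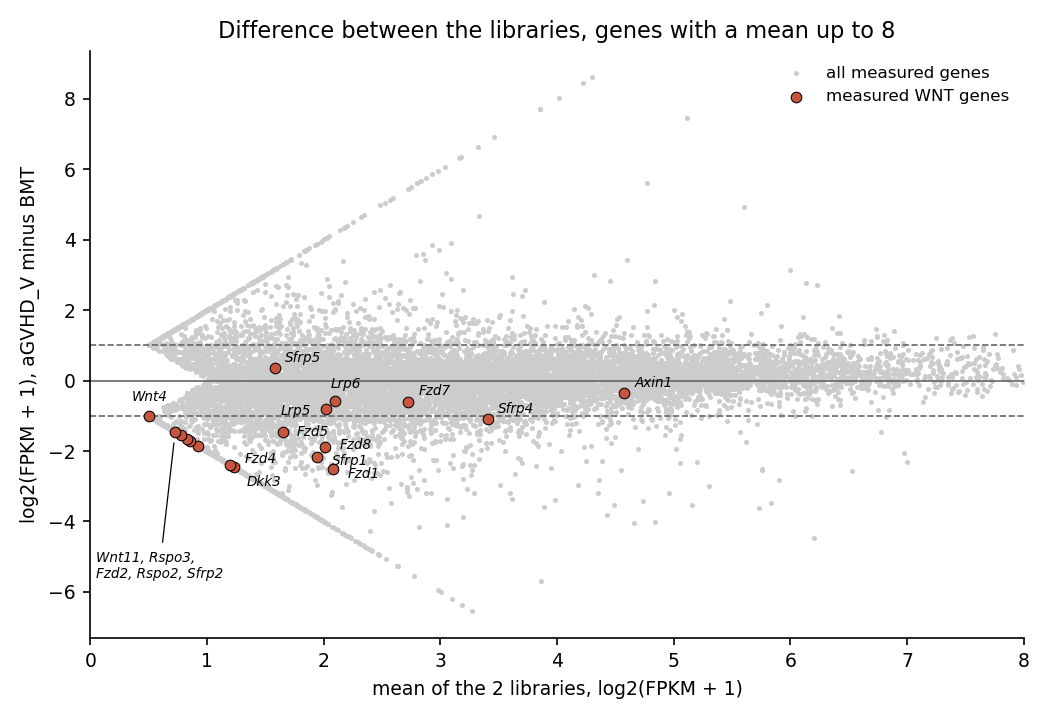
Difference between the libraries, log2(FPKM + 1) in aGVHD_V minus BMT, against the mean level for all measured genes (grey; genes with a mean over 8 lie outside the panel) and the 18 measured WNT genes (red), with dashed lines at 2-fold. Of the WNT genes 13 lie on or below the lower line, 8 of them on the lower edge formed by genes without reads in aGVHD_V, and none lies above the upper line.

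WNT ligand transcripts were scarce in both libraries. Of 19 ligand genes 5 had reads in BMT and none had reads in aGVHD_V, and their summed FPKM was 3.27 in BMT. Wnt11, a ligand known mainly from signalling that does not use beta-catenin, was the highest, with 87 reads (FPKM 1.73) in BMT. Wnt4 had 51 reads (FPKM 1.003), Wnt2b 16 reads (0.314), Wnt5a 9 reads (0.0949) and Wnt9a 5 reads (0.124). At the depth of aGVHD_V, no reads still allowed an FPKM of up to 2.99 for Wnt11 and 2.95 for Wnt4, above their levels in BMT, so a difference of these ligands was not detectable. No reads were found in either library for the other 14 ligand genes, which are Wnt1, Wnt2, Wnt3, Wnt3a, Wnt5b, Wnt6, Wnt7a, Wnt7b, Wnt8a, Wnt8b, Wnt9b, Wnt10a, Wnt10b and Wnt16.

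The summed FPKM of the 10 receptor genes was 34 in BMT and 7.10 in aGVHD_V, 4.79-fold lower. Of 6 measured receptors 5 were at least 2-fold lower (83.3%) and 1, Fzd7, was not. The share was 19.4% over all measured genes and 27.9% over those with their higher FPKM between 1 and 10. Fzd2 and Fzd4 had no reads in aGVHD_V and so were called lower by construction. Fzd1 (ENSMUSG00000044674, chromosome 5, 4753839 to 4758035, minus strand of GRCm38) had 463 reads (FPKM 9.10) in BMT and 34 reads (0.76) in aGVHD_V. The ratio was 12-fold, with an interval from 1.67 to 1239 that lies above 1 but leaves the size almost unbounded. Fzd1 had the highest level of the frizzled transcripts in BMT. In aGVHD_V it lay under the limit of 3 counts, as did Fzd5 and Fzd8, so that the order of these 3 there is not resolved.

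Fzd4, a receptor that also binds the blood vessel signal norrin (ENSMUSG00000049791, chromosome 7, 89404355 to 89413134, plus strand), had 347 reads (FPKM 4.26) in BMT and none in aGVHD_V. The BMT level was 2.31 times the limit of 1.84 that no reads allow in aGVHD_V, and the interval of the ratio, which also counts the error of the BMT level, began at 1.74. Fzd8 had 274 reads (FPKM 6.75) against 39 (1.09), a ratio of 6.18 with an interval from 0.908 to 384 that includes no difference. Fzd5 had 353 reads (FPKM 4.21) against 65 (0.882), a ratio of 4.77 with an interval from 1.003 to 71.8. Fzd2 had 95 reads (FPKM 2.14) and none, and its limit of 3.38 in aGVHD_V lies above the BMT level. Each of these was lower in aGVHD_V, and the counts separate the libraries for Fzd1 and Fzd4, only just for Fzd5, and not for Fzd8 and Fzd2.

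Fzd7, a receptor of many WNT ligands (ENSMUSG00000041075, chromosome 1, 59482424 to 59486955, plus strand), had 392 reads (FPKM 7.13) in BMT and 211 reads (4.37) in aGVHD_V. Its ratio of 1.63 had an interval from 0.613 to 5.58, which includes no difference. Among the frizzled reads, Fzd7 gave 20.04% of the frizzled reads in BMT (exact binomial interval on the widened counts 13.7% to 27.6%) and 60.5% in aGVHD_V (22.8% to 90.5%). The share of Fzd7 was higher in aGVHD_V, but the intervals overlap. Fzd1 gave 23.7% (16.9% to 31.6%) and 9.74% (0.0952% to 49.8%). Such shares do not depend on how the libraries were scaled to each other. Fzd6 had 19 reads (FPKM 0.325) and Fzd3 13 reads (0.0837) in BMT and none in aGVHD_V, and Fzd9 and Fzd10 had none in either. In the GENCODE M21 annotation 6 of the 48 genes consist of 1 exon, and all 6 are frizzled receptors. They are Fzd1, Fzd2, Fzd7, Fzd8, Fzd9 and Fzd10, whose reads can carry no splice junction.

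**Figure D3:**
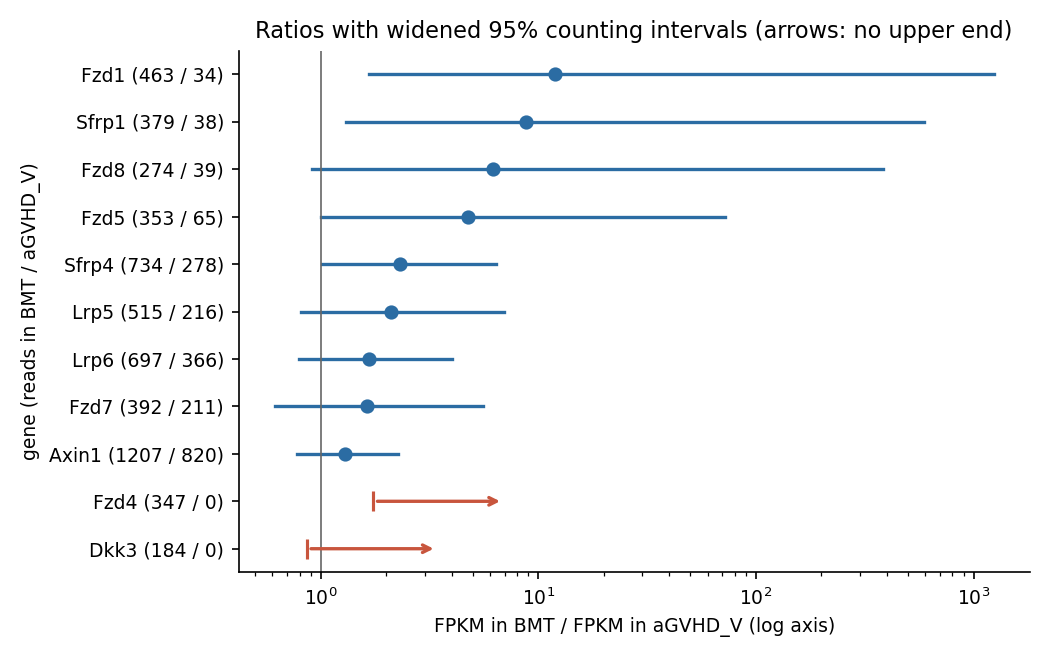
FPKM in BMT divided by FPKM in aGVHD_V (log axis) for 9 of the 10 genes with reads in both (without Sfrp5, which lies under the limit of 3 counts in each), with widened 95% counting intervals, and the lower interval ends (arrows) for Fzd4 and Dkk3, which had no reads in aGVHD_V, with the reads of each library in brackets. The intervals of Fzd1, Sfrp1, Sfrp4 and Fzd5 lie above 1, the latter pair only just, those of the other 5 genes include 1, and the arrow of Fzd4 starts above 1 and that of Dkk3 below it.

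The 250 bases before the RefSeq start site are shown for the frizzled genes with the largest ratio (Fzd1), with no reads in aGVHD_V (Fzd4) and within 2-fold (Fzd7), whose intervals overlap, and beside them for the ligand with the most reads, Wnt11, and for Axin2, a gene that beta-catenin is known to switch on. All are 5' to 3' on the strand of the gene, from the RefSeq table of GRCm38.p6, and capitals mark a match to the TCF/LEF core CTTTGAT or CTTTGAA on either strand. The windows are chr5:4758217-4758466 (minus strand) for Fzd1, chr7:89404116-89404365 (plus) for Fzd4, chr1:59481897-59482146 (plus) for Fzd7, chr7:98834862-98835111 (plus, the first of 2 start sites) for Wnt11 and chr11:108920099-108920348 (plus) for Axin2.
Fzd1: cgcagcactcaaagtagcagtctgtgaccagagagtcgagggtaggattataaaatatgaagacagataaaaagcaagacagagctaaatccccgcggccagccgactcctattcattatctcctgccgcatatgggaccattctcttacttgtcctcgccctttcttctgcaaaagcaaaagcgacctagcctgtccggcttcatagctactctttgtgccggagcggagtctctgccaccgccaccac
Fzd4: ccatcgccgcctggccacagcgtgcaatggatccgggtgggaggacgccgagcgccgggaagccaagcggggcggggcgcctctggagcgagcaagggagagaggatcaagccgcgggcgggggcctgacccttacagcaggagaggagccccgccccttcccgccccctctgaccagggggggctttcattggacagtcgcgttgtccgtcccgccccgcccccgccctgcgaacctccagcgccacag
Fzd7: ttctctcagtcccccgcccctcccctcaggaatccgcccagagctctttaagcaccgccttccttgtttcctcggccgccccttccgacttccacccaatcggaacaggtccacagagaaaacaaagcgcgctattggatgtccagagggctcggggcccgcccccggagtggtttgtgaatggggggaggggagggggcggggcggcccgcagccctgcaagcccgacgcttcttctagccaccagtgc
Wnt11: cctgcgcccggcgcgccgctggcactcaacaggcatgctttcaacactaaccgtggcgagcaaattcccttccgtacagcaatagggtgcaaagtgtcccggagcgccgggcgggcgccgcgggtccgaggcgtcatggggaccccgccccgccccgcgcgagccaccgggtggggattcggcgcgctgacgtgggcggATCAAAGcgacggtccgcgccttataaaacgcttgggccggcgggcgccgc
Axin2: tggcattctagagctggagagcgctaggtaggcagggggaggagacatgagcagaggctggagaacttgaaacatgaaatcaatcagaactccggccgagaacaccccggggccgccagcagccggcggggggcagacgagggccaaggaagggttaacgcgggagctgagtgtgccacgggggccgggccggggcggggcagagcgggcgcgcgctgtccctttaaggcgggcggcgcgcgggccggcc

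The bases of the Fzd1 window are G or C for 51.2%, against 72.8% for Fzd4, 65.2% for Fzd7, 70.8% for Wnt11 and 69.2% for Axin2. The dinucleotide CG occurs 12 times in the Fzd1 window, 25 times in that of Fzd4 and 17 times in that of Fzd7. A window was found for 30 of the 48 genes (33 windows, since some have several start sites), and for 8 of the 18 measured ones. The median GC content was 68.0% over these 33 windows and 52.4% over all 32851 windows of the table. The TCF/LEF core was in 3 of the 33 (9.09%), those of Wnt11, Wnt5b and Dkk1, and in 7.48% of all windows. In Wnt11 the match, ATCAAAG on the printed strand, begins 51 bases before the start site. The windows of Fzd1, Fzd4, Fzd7 and Axin2 do not hold these letters. A match is a string of letters and not a site shown to be bound.

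The co-receptors Lrp5 and Lrp6, which join frizzled receptors in the beta-catenin branch, were within 2-fold on the log2(FPKM + 1) scale. Lrp5, in which mutations are known to change bone mass, had 515 reads (FPKM 4.36) in BMT and 216 (2.08) in aGVHD_V, a ratio of 2.10 with an interval from 0.816 to 6.92. Lrp6 had 697 reads (FPKM 4.20) against 366 (2.51), a ratio of 1.67 (0.797 to 4.02). Both intervals include no difference. Lrp5 gave 42.5% of the reads of the pair in BMT (31.9% to 53.6%) and 37.1% in aGVHD_V (13.1% to 67.0%), shares that overlap. With both libraries set to the same FPKM sum, Lrp5, Lrp6 and Fzd7 were also counted as at least 2-fold lower.

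Among the SFRP antagonists, Sfrp4 was the most abundant in both libraries, and Sfrp1 was lower in aGVHD_V by an amount that was not resolved. Sfrp4 (ENSMUSG00000021319, chromosome 13, 19623104 to 19632994, plus strand), which is known to affect cortical bone, had 734 reads (FPKM 14.5) in BMT and 278 (6.24) in aGVHD_V. Its ratio of 2.32 had an interval from 1.02 to 6.41, and its difference of -1.10 lay just past the 2-fold threshold. Sfrp1, an inhibitor of bone formation, had 379 reads (FPKM 7.15) against 38 (0.815), a ratio of 8.77 with an interval from 1.31 to 591. Its level in aGVHD_V lies under the limit of 2.83 there. Sfrp2, a fibroblast product, had 68 reads (FPKM 2.60) and none, with a limit of 5.75 in aGVHD_V, so that a difference was not established. Sfrp5, known from fat tissue, had 38 reads (FPKM 1.65) against 48 (2.37). Both values lie under the limit of 3 counts, so no ratio is given, and the difference of 0.35 became -0.05 with an equal FPKM sum. Sfrp4 gave 60.2% of the SFRP reads in BMT (49.2% to 70.6%) and 76.4% in aGVHD_V (36.9% to 97.1%).

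Of the 4 DKK genes 1 was found. Dkk3, a relative of the DKK antagonists that is not known to act on the LRP co-receptors as Dkk1 does, had 184 reads (FPKM 4.52) in BMT and none in aGVHD_V. The BMT level was 1.23 times the limit of 3.69 that no reads allow in aGVHD_V, and the interval of the ratio began at 0.863 and so includes no difference. Dkk1, Dkk2 and Dkk4 had no reads in either library.

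R-spondins and LGR receptors had reads in BMT only, and at levels below the limit that no reads allow in aGVHD_V, so that a difference was not established. Rspo2 had 141 reads (FPKM 2.27) and Rspo3, a ligand known from endothelial and stromal cells, 72 reads (1.92), with limits of 2.42 and 4.01 in aGVHD_V. Lgr5, a receptor that marks epithelial stem cells in other tissues, had 84 reads (FPKM 0.675), and Lgr4, the more widely expressed receptor, 68 reads (0.953). Their limits were 1.21 and 2.10. Rspo1, Rspo4 and Lgr6 had no reads in either library.

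Of the AXIN scaffolds of the destruction complex, Axin1 was abundant in both libraries and Axin2 was low. Axin1, the constitutive scaffold (ENSMUSG00000024182, chromosome 17, 26138688 to 26195811, plus strand), had 1207 reads (FPKM 26) in BMT and 820 (20.1) in aGVHD_V, the highest level of the 48 genes in both. Its ratio of 1.29 had an interval from 0.778 to 2.26. Axin2 had 47 reads (FPKM 0.704) in BMT and none in aGVHD_V, where no reads allow up to 2.25. A difference of Axin2, often read as a measure of beta-catenin activity, was thus not detectable.

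The rest of the pathway was lower about as often as all genes were. A list of 76 further WNT pathway genes had 55 measured members, of which 12 were at least 2-fold lower (21.8%, against 19.4% of all measured genes). None of the 55 was at least 2-fold higher, against 8.65% of all measured genes. Of the 12, 11 had no reads in aGVHD_V. The other 43 were within 2-fold. With genes without reads set to their limit, 2 genes of the list were past the threshold. The median was -0.19, against -1.51 for the 18 genes described above, and the list is expressed at a higher level (median of the mean FPKM 3.45 against 2.40). All 17 measured genes of the cytoplasmic relay lay within 2-fold on the log2(FPKM + 1) scale, with a median difference of 0.06. By the ratio of FPKM alone, Csnk1g1 was 2.80-fold, Amer1 2.48-fold and Apc 2.06-fold lower, each with an interval that includes no difference (from 0.675, 0.752 and 0.818). With an equal FPKM sum these 3 genes and Tnks were past the threshold, with differences of -1.39, -1.58, -1.33 and -1.08. These 4 genes are named after their values were seen. Also in the cytoplasmic relay, Ctnnb1, which encodes beta-catenin, had an FPKM of 38.8 in BMT and 35.3 in aGVHD_V, a ratio of 1.10 (0.788 to 1.57). Gsk3a, a kinase of the destruction complex and the relay gene with the highest mean of both libraries, had 35.5 against 55.1, 1.55-fold higher in aGVHD_V (interval 1.04 to 2.29). With an equal FPKM sum the difference of Gsk3a was 0.05 in place of 0.62.

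Ligand secretion genes were low. Wls, the carrier that brings WNT proteins to the surface, had an FPKM of 5.29 against 2.65, a ratio of 1.999 (0.825 to 5.99) that counts as within 2-fold on the log2(FPKM + 1) scale. Porcn, the enzyme that adds the lipid, had an FPKM of 1.24 in BMT and Trabd2b, a protease that inactivates WNT proteins, 1.67. Neither had reads in aGVHD_V, where the limits of 4.13 and 1.87 lie above these levels, so a difference was not established. Ptk7, a co-receptor of the polarity branch, had 386 reads (FPKM 5.91) and none, with an interval of the ratio that began at 1.95. Tnfrsf19, a receptor of the TNF receptor family, had 240 reads (FPKM 4.18) and none, with an interval that began at 1.17. Apcdd1, a membrane inhibitor, had 38 reads (FPKM 1.12) and none, and its limit of 4.42 in aGVHD_V lies above the BMT level. Dkkl1, a relative of the DKK genes, had 7.06 against 13.1, a ratio of 0.539 (0.166 to 2.02).

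In the nucleus, 3 of 11 measured genes were lower (27.3%, against 19.4% of all measured genes), and all 3 had no reads in aGVHD_V. Tle2, a co-repressor, had 327 reads (FPKM 4.33) in BMT, and the interval of its ratio began at 1.64. Tcf7l1, a mostly repressive TCF factor, had 110 reads (FPKM 2.31), and Bcl9, a beta-catenin partner, 112 reads (1.09), and the intervals of both include no difference. Pygo2, a co-activator, was the highest of this group at 19.3 against 20.9, a ratio of 0.923 (0.540 to 1.65). Of 5 measured genes often used as targets of the pathway, 1 was lower. This was Nkd1, a feedback inhibitor, with 135 reads (FPKM 2.44) and none, and its limit of 2.72 in aGVHD_V lies above the BMT level. Cd44, an adhesion receptor and the highest of them, had 23.7 against 20.7 (ratio 1.15, 0.785 to 1.73). In the polarity and calcium branch 3 of 14 measured genes were lower (21.4%, a share near the 19.4% of all measured genes). Daam2, a formin that binds the relay protein DVL, had 438 reads (FPKM 3.70) against 65 (0.624), a ratio of 5.92 (1.27 to 88.3). Vangl2 and Prickle1, core polarity genes, had 113 and 54 reads (FPKM 1.33 and 1.02) and none. Their limits of 1.77 and 2.85 in aGVHD_V lie above these levels. By the ratio of FPKM alone, Celsr2 was 7.96-fold and Camk2d 2.33-fold higher and Celsr1 2.94-fold lower in aGVHD_V. The intervals of these 3 ratios include no difference, and the 3 genes are named after their values were seen. Rac1, a small GTPase and the highest of the branch, had 44.7 against 39.9 (ratio 1.12, 0.8004 to 1.602).

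**Figure D4:**
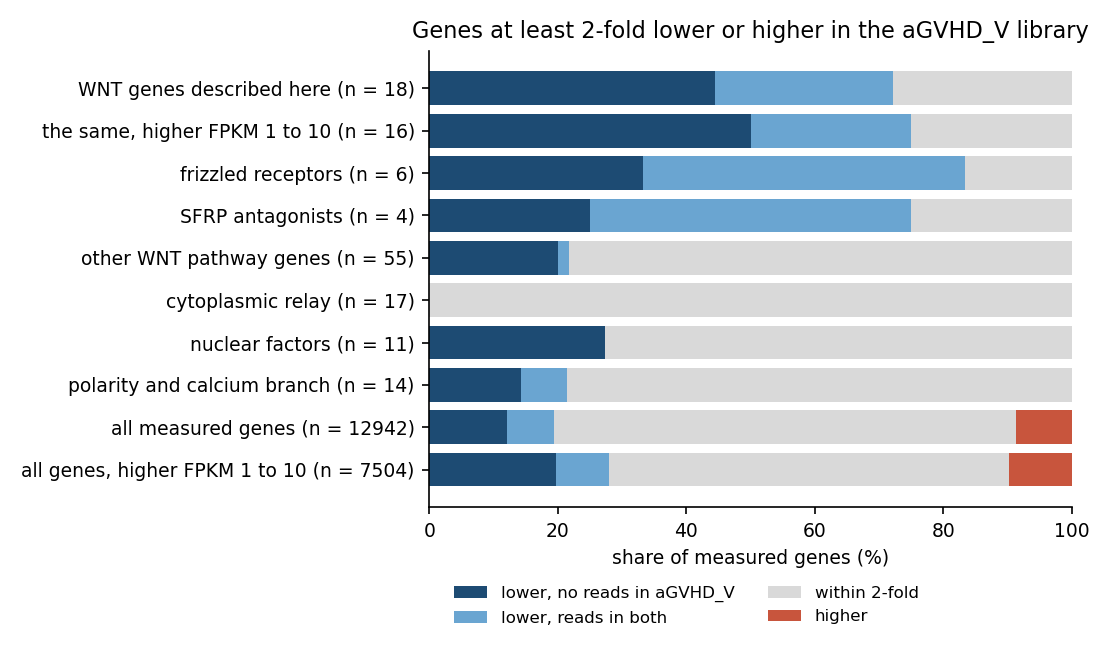
Share of measured genes (%) that were at least 2-fold lower in aGVHD_V without reads there (dark blue) or with reads in both (light blue), within 2-fold (grey) or higher (red), for the WNT genes, their families, further WNT pathway lists and all genes, with the number measured in brackets. Lower genes make up 72.2% of the 18 measured WNT genes, none of the 17 cytoplasmic relay genes and 19.4% of all measured genes.

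Markers of mesenchymal, osteolineage and endothelial cells were mostly lower in aGVHD_V, whereas pericyte, smooth muscle and Schwann cell markers were mixed. All 8 markers of mesenchymal stromal cells were at least 2-fold lower in aGVHD_V, their summed FPKM was 538 against 25.3 (21.3-fold lower), and Lepr had no reads there. All 7 measured osteolineage markers of 8 were lower (summed FPKM 134 against 14.2), with Ibsp and Sp7 without reads in aGVHD_V and Bglap without reads in either. Of 7 endothelial markers 5 were lower (34.5 against 7.12), with Cdh5, Kdr and Tek without reads there. Of 5 pericyte and smooth muscle markers 2 were lower (122 against 70.5, Kcnj8 without reads in aGVHD_V). Of 5 Schwann cell markers 2 were lower and 1 higher (50.7 against 36.8, S100b without reads in aGVHD_V). The intervals of Alpl, Sp7, Tek, Kcnj8, S100b and Sox10, all counted here as lower or higher, include no difference. Cxcl12 alone made up 346 of the mesenchymal sum in BMT and 14.6 in aGVHD_V. The marker sums were 21.3-fold (mesenchymal), 9.41-fold (osteolineage), 4.85-fold (endothelial), 1.73-fold (pericyte and smooth muscle) and 1.38-fold (Schwann) lower. The frizzled sum was 4.79-fold and the SFRP sum 2.75-fold lower (25.9 against 9.42). The part of these cells in the WNT differences was not tested.

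Neutrophil and erythroid markers were abundant in both libraries despite the depletion. Each blood cell marker below had reads in both libraries except those named. Summed FPKM of 5 neutrophil markers was 14089.8 in BMT and 18944 in aGVHD_V, and that of 5 erythroid markers 36570.6 and 130869, with 0 and 3 of them at least 2-fold higher. The shares over all measured genes were 8.65% higher and 19.4% lower. All 3 megakaryocyte markers were higher (45.9 against 237), and 1 of 5 T cell markers, Cd3d, was (12.6 against 24.5). The intervals of Cd3d and of the megakaryocyte marker Gp9 include no difference. Of 4 monocyte and macrophage markers 1 was lower (53.1 against 30.4). All 5 B cell markers were lower (251 against 17.6), with Cd79b and Vpreb1 without reads in aGVHD_V. The interval of Vpreb1 includes no difference. Ptprc and Tfrc, which encode CD45 and CD71, lay within 2-fold (summed FPKM 169 against 277). Ptprc had an FPKM of 9.28 in BMT and 7.85 in aGVHD_V, a ratio of 1.18 (0.813 to 1.76). Tfrc had 160 against 269, 1.68-fold higher in aGVHD_V (interval 1.49 to 1.90). The libraries hold all these cells together, and which cells gave the Axin1 and relay transcripts was not tested.

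**Figure D5:**
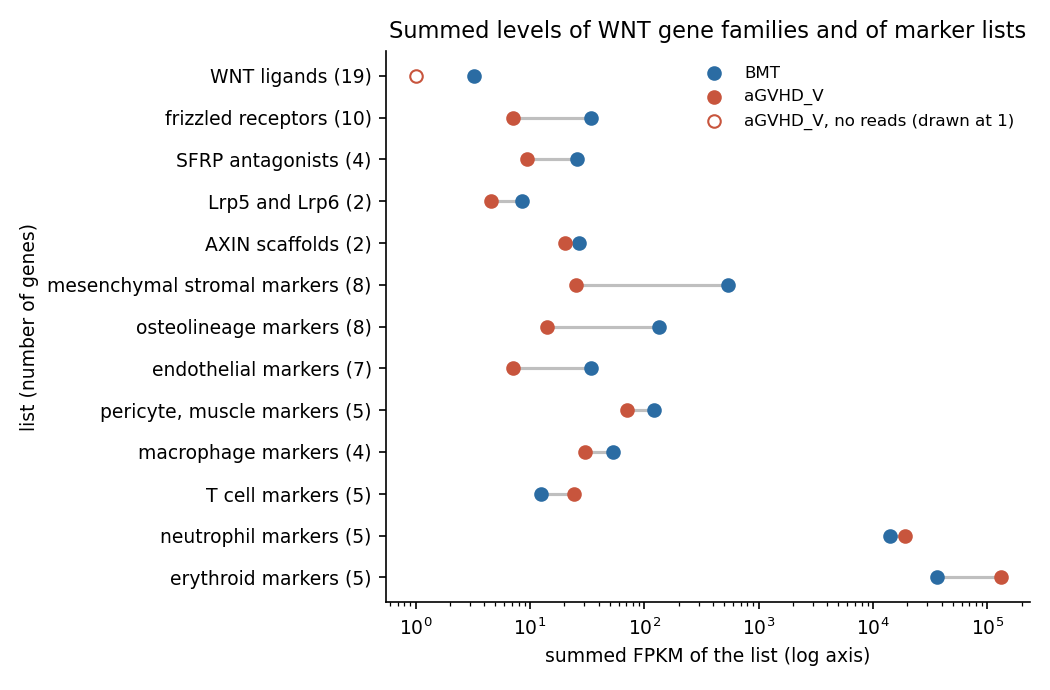
Summed FPKM (log axis) of some WNT gene families and cell type marker lists in BMT (blue) and aGVHD_V (red), with the number of genes in each list in brackets. The DKK, R-spondin and LGR families and the Schwann, general blood, megakaryocyte and B cell lists are not drawn. Of the lists not drawn, the B cell sum was lower in aGVHD_V (251 against 17.6) and the megakaryocyte sum higher (45.9 against 237). The mesenchymal, osteolineage and endothelial sums and the frizzled sum lie lower in aGVHD_V, whereas the erythroid sum is higher there (36570.6 against 130869).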

How the data were processed

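RNA from cells sorted as marrow niche cells was sequenced as 1 BMT and 1 aGVHD_V library. The title of the series speaks of single cells, but the table holds 1 value per gene and library. The authors deposited FPKM, per the file headers, and edgeR 3.18.1, GRCm38 and mm10 are named in the submitters' processing notes. The aligner, counting rules and use of strand were not given in the sources used here. Of the genes that overlap 1 of the 48, Fbxl14 alone had reads, and it overlaps Wnt5b, which had none. The table has 1 more column of values, whose name fits none of the samples, and it was left aside.

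FPKM times gene length was a whole multiple of 1 step in each library for 100.0% of values above 0 (tolerance 0.05), which gave reads back, 10869191 and 11299834 over genes. The deposited FPKM rest on library sizes of 12127105 and 10661688, 1.12 and 0.944 times those reads. The most frequent read number of a gene (moving window of 7, numbers below 4 left out) was 14 and 44, and 3 times that was the limit set for no reads. Intervals of ratios are exact conditional (Clopper-Pearson, 95%) on reads divided by that number.

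Differences are log2(FPKM + 1), aGVHD_V minus BMT, for genes that reached an FPKM of 1 in either library. A difference of 1 or more in size (2-fold) was called. With 1 library per group no p-value was computed. Every one of the 48 genes is named. Of the further pathway genes, those at least 2-fold different and the highest of each role are named. The 48 genes and all lists were chosen with earlier results of these data known. Of the further list, 2 alternative symbols were not in the table. Coordinates of 47 of the 48 genes equal those of GENCODE M21. Alternatives were other pseudocounts, scalings and filters. Python 3.11.15, numpy 2.4.6, pandas 2.3.3 and scipy 1.17.1 were used, and the scripts were tested on simulated data.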

Additional observations from a re-analysis of the deposited data

How the results depend on the processing

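Each count was repeated under 9 alternatives, 7 planned and 2 chosen after seeing the data (genes without reads at their limit, and FPKM of at least 1 required in both libraries). Of the WNT genes, 13 of 18 were lower. This became 2 of 18 (Fzd1 and Sfrp1) with a pseudocount of 5, against 3.89% of all genes. With an FPKM minimum of 5 it was 4 of 6, against 10.7%. With genes at their limit it was 5 of 18, against 7.63%. With an FPKM of 1 in both it was 2 of 7, against 6.14%. Among the other 5, a pseudocount of 0.1 gave 14 of 18, against 23.6% of all genes. An equal FPKM sum gave 19 of 21, against 38.4%. Centring on the median gene gave 13 of 18, against 19.9%. Scaling to all recovered reads gave 14 of 19, against 23.5%, and no filter 13 of 26, against 15.6%. None was higher under any of the 9. The median of -1.51 became -3.20 and -0.53 with pseudocounts of 0.1 and 5, -2.29 with an equal FPKM sum, -0.46 at the limit and -0.60 with an FPKM of 1 in both. Of all 12942 measured genes, 2512 were lower. This became 503 of 12942 with a pseudocount of 5 and 5679 of 14788 with an equal FPKM sum. It was 859 of 8000 with a minimum of 5 and 987 of 12942 at the limit. An FPKM of 1 in both left 599 of 9753. The 1119 higher became 356 with a pseudocount of 5, 616 with a minimum of 5 and 521 with an FPKM of 1 in both. Of the 55 further pathway genes measured, 12 were lower. This became 1 of 55 with a pseudocount of 5. An equal FPKM sum gave 27 of 65, against 38.4% of all genes. It was 1 of 25 with a minimum of 5 and 2 of 55 at the limit. An FPKM of 1 in both left 0 of 36. The 0 higher became 2 of 55 with a pseudocount of 0.1 and 1 of 65 with an equal FPKM sum. Lower genes were 69.2% of all genes called, and 86.3% with an equal FPKM sum, 58.6% with a pseudocount of 5, 58.2% with a minimum of 5, 56.7% at the limit and 53.5% with an FPKM of 1 in both. An equal FPKM sum moved the median gene by -0.55 and scaling to all recovered reads by -0.21. Single-gene differences kept their sign in 132 of 139 values. The other 7 were Sfrp5 with an equal FPKM sum (-0.05) and genes set to no difference at their limit. Depth limits the low genes: 5 of the 48 reached the limit of 3 counts in the aGVHD_V library and 20 in the BMT library. No paired analysis was possible because each group has 1 library, and for the same reason no library could be left out.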

Other observations

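Several WNT ligand genes lie beside each other in the mouse genome, and these neighbours were almost without reads. The gap is 6194 bases between Wnt6 and Wnt10a on chromosome 1, 11707 bases between Wnt10b and Wnt1 on chromosome 15, and 16176 and 24329 bases between Wnt3a and Wnt9a and between Wnt9b and Wnt3 on chromosome 11 (GRCm38). Of these 8 genes Wnt9a had 5 reads in the BMT library, and the other 7 had none in either library. The same held for 14 of all 19 ligand genes and for 38418 of all 54532 genes. In the polarity branch, the formin gene Daam1 had 9.79 FPKM in BMT and 12.7 in aGVHD_V, whereas its relative Daam2 had 3.70 and 0.624. Daam1 is named here after its values were seen.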
